A study of Mus musculus with 6 samples.

Results

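In germinal center (GC) B cells, 663 protein-coding genes carried H3K4me3 at one of their promoters and lacked it at another promoter at least 5 kb away. They were 24.6% of the 2694 genes with protein-coding transcription start sites (TSSs) at least 5 kb apart, and those came from 21851 protein-coding genes in all. A TSS was called used when an H3K4me3 peak covered it in all 3 H3K4me3 libraries, and unused when no peak of any of these libraries lay within 1 kb. A gene was taken when a used and an unused TSS of it were at least 5 kb apart. The words used and unused stand for this mark only, since no RNA was measured in these libraries. The genes were chosen by the H3K4me3 peaks, so its presence at one promoter and absence at the other are given as a description, without a test. H3K4me1, base composition, gene structure and annotation were not part of the rule.

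The series holds 6 Mint-ChIP libraries of wild-type mouse splenic B cells, 3 with H3K4me3 and 3 with H3K4me1 antibodies. Mint-ChIP is a chromatin immunoprecipitation for small cell numbers in which barcoded samples share one precipitation and the yield is copied through RNA. Each library came from 50000 sorted cells of mice immunized 8 days earlier with sheep red blood cells, an antigen that drives a GC reaction in the spleen, and there were no untreated or mutant samples. The cell type entry reads centrocytes, a name for GC B cells of the light zone, and the study's methods read GC B cells without a zone. An H3K27ac antibody appears in the extraction text, while the titles, the antibody entries and the design text name H3K4me1 and H3K4me3, and the titles were followed. The labels do not say whether the 3 replicates were separate mice, nor whether these mice carried the cre allele of the study's other wild-type controls, so the spread between libraries may be technical. The H3K4me3 lists held 41936 to 46707 peaks and the H3K4me1 lists 11922 to 24136. Read totals were not used here, so the depth behind a missing peak is unknown. The promoters of 8 of 8 GC B cell markers were covered by H3K4me3 in all 3 libraries, against 0 of 5 T cell markers, 0 of 5 myeloid and 0 of 3 erythroid markers, although Itgam, Klf1 and Hbb-bt had a peak in part of the libraries or near their TSS.

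Many mammalian genes can start transcription at more than one place. A change of first exon can alter the 5′ untranslated region, the N-terminus of the protein or the cell types in which the gene is active. H3K4me3 marks nucleosomes around active or poised promoters, and H3K4me1 is found at enhancers and on the flanks of H3K4me3 domains. Promoters rich in CpG dinucleotides tend to be active in many tissues, whereas promoters poor in CpG are more often restricted to some tissues.

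The sequences of 3 genes give examples of base composition at such promoters. Each line gives the 150 bases directly before a TSS, read 5′ to 3′ on the gene's strand from the GRCm38 reference, with every CG dinucleotide in capitals, for the used and the unused promoter nearest to each other. Dnmt1 (the maintenance DNA methyltransferase) had the used promoter richer in CG, Ciita (the transactivator of MHC class II genes) had few at both, and Arhgef7 (a guanine nucleotide exchange factor) had many at both. In all 3 genes the unused promoter lies upstream of the used one. That order held in 129 of the 663 genes (19.5%), and the commoner one is not shown.
Dnmt1 unused, chr9:20959889-20960038, minus strand: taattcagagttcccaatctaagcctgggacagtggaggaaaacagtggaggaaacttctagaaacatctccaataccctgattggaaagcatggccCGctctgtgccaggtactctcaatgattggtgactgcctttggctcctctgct
Dnmt1 used, chr9:20952980-20953129, minus strand: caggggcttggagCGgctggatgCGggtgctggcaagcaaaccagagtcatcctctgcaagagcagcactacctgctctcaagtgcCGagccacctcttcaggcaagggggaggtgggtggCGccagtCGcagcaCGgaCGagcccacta
Ciita unused, chr16:10479909-10480058, plus strand: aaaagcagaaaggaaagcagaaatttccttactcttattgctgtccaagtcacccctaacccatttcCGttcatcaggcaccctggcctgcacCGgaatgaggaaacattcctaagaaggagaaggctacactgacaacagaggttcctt
Ciita used, chr16:10488129-10488278, plus strand: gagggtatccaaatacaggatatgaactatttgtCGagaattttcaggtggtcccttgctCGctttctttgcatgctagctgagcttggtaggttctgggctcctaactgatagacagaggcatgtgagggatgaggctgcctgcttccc
Arhgef7 unused, chr8:11727955-11728104, plus strand: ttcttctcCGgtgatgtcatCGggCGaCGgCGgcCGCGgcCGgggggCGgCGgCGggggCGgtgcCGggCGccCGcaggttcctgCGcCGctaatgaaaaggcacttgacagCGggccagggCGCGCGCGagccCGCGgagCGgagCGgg
Arhgef7 used, chr8:11758204-11758353, plus strand: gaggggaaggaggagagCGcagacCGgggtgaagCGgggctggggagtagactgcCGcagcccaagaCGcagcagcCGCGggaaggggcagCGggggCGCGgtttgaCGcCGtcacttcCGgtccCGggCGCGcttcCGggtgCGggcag
The CpG ratio, which is the observed number of CG dinucleotides over the number expected from the C and G content, was taken from 250 bases before to 50 bases after a TSS. It was 0.101 at the unused and 0.5 at the used promoter of Dnmt1, 0.147 and 0.213 at those of Ciita, and 1.16 and 0.939 at those of Arhgef7.

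The upstream promoter was the one with H3K4me3 in most of these genes. All used promoters lay upstream of the unused ones in 504 of the 663 genes (76.0%) and downstream of them in 129 (19.5%), and used and unused promoters were interleaved in 30 (4.52%). Of the 633 genes with a single direction, 79.6% used the upstream promoter (95% Wilson interval 76.3% to 82.6%, for counting error only). Over all 2694 genes with several promoters, the first TSS was used in 26.2% and the last in 12.2%, and the first was unused in 46% and the last in 74.2%. In 17% of these genes the first TSS was used and the last unused, and in 3.71% the reverse held. Genes of these last 2 kinds meet the rule themselves. They make up most of the gap between first and last TSSs in the used shares and a smaller part of it in the unused shares. All these shares are therefore given as background and are no independent comparison.

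The upstream share of all genes, with interleaved ones counted in the total, varied little with distance. The separation, taken as the smallest distance between a used and an unused TSS that met the rule, had a median of 16.4 kb, quartiles of 8.82 and 37.0 kb and a range of 5.004 to 613 kb. The upstream share was 79.4% of 199 genes at 5 to 10 kb, 74.8% of 222 at 10 to 25 kb, 73.4% of 109 at 25 to 50 kb, 75.6% of 86 at 50 to 100 kb and 74.5% of 47 beyond 100 kb. The downstream share was 14.6%, 22.1%, 20.2%, 19.8% and 25.5% in the same order, lowest in the nearest class and highest in the farthest. The interleaved share was 6.03%, 3.15%, 6.42%, 4.65% and 0%. The Wilson intervals of all 5 classes, for counting error only, overlapped, and the classes were not tested.

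**Figure D1:**
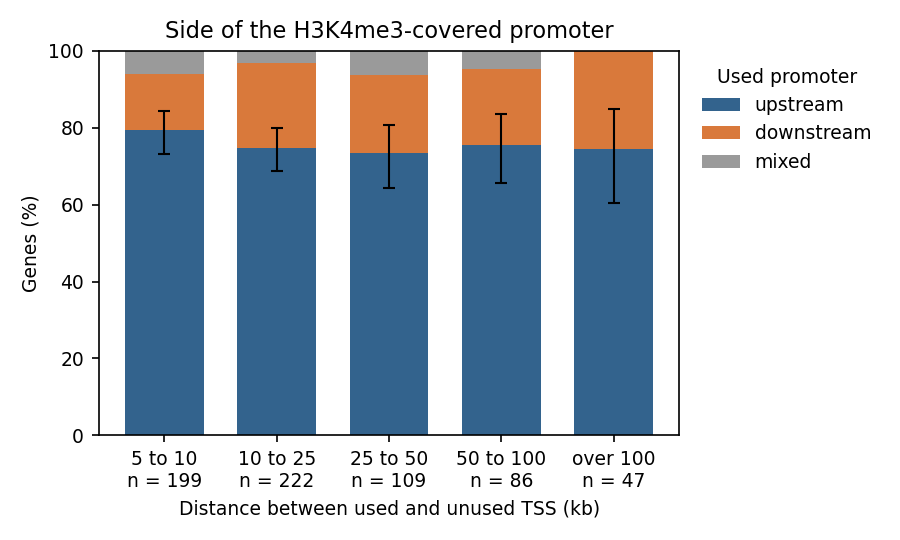
Percent of genes (vertical axis) by the side of the promoter that carried H3K4me3, for 5 classes of distance between the used and the unused TSS in kb (horizontal axis, with the number of genes). Blue is upstream, orange downstream and grey mixed, and the error bars are 95% Wilson intervals of the upstream share, which stayed between 73.4% and 79.4%.

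After TSSs of the same state within 1 kb were merged, the 663 genes had 713 used and 792 unused promoters. A second used promoter was present in 43 genes and a second unused one in 97. A further TSS with an intermediate state, neither covered in all libraries nor free of H3K4me3, was present in 150. Other genes with several promoters fell into 978 in which every TSS was unused, 708 with no used TSS but some intermediate one, 131 with used TSSs at least 5 kb apart and no qualifying unused one, and 214 with other patterns. On autosomes 15.7% to 33.7% of genes with several promoters met the rule, on the X chromosome 11 of 102 (10.8%).

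By annotation, most unused downstream promoters lay inside transcripts that start at the used promoter, as their downstream position makes likely. Of 593 such promoters, 387 (65.3%) lay in an intron and 199 (33.6%) in an exon of such transcripts, and 7 lay outside. Annotation support differed between the classes. A transcript support level of 1 or a consensus coding sequence tag was held by 80.7% of transcripts from used and 67.5% of those from unused promoters, against 81.7% of all protein-coding transcripts. It was lowest, 66.1%, for unused downstream promoters and was 73.2% for unused upstream ones. In 329 of 663 genes (49.6%) no annotated start codon was shared between the transcripts of used and unused promoters, so the annotated proteins begin at different codons. The share was 48.8% of genes with the upstream and 56.6% of genes with the downstream promoter used.

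Called H3K4me1 peaks, which are narrow peaks here, were nearly absent from the unused promoters. A peak of this mark lay within 1 kb of 9 of 792 unused promoters (1.14%) in replicate 1, of 3 (0.379%) in replicate 2 and of 5 (0.631%) in replicate 3. Over all unused TSSs of the genome, counted singly and not merged into promoters, the shares were 0.4%, 0.214% and 0.133% in the same order. At the used promoters of the same genes the counts were 235 (33.0%), 122 (17.1%) and 115 (16.1%) of 713, against 30.9%, 16.8% and 15.5% of all used TSSs. The lowest share at used promoters, 16.1%, lay above the highest at unused ones, 1.14%. The mean was 0.715% ± 0.386 (SD, n = 3) at unused and 22.1% ± 9.45 at used promoters, a difference of −21.4 ± 9.09 percentage points that was negative in 3 of 3 libraries (two-sided exact sign-flip permutation test, p = 0.25, the smallest 3 libraries allow). Of all H3K4me1 peaks, 80.0%, 80.7% and 84.2% lay within an H3K4me3 peak of some library, and only 3387, 1920 and 1305 lay more than 1 kb from one, so that excluding H3K4me3 around a promoter also excludes most H3K4me1 peaks there.

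Against other promoters without H3K4me3, the unused promoters were slightly higher. The 978 genes without H3K4me3 at any TSS had 2203 promoters, of which 3, 0 and 1 had an H3K4me1 peak within 1 kb in replicates 1 to 3. The count of 0 allows a share of up to 0.136%. The mean share was 0.0605% ± 0.0693 (SD, n = 3) there. The unused promoters stood 0.655 ± 0.316 percentage points above it, and were higher in 3 of 3 libraries (two-sided exact sign-flip permutation test, p = 0.25). When only H3K4me1 peaks reaching 5 in −log10 q were kept, the difference was 0.04209 ± 0.0729 percentage points (SD, n = 3). That mean is smaller than its spread, so its direction is not resolved. Within 5 kb of the TSS, H3K4me1 was found at 11.5%, 8.84% and 6.82% of unused promoters and at 1.82%, 0.999% and 0.681% of those of genes without H3K4me3, a difference of 7.88 ± 1.77 percentage points with the same p.

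The 2 classes also differed in their distance to H3K4me3, with a median of 7.51 kb to the nearest peak for unused promoters and 34.6 kb for genes without H3K4me3. The choice of the classes favours this. Each unused promoter belongs to a gene with a used promoter, and the other genes were taken for having none. The H3K4me1 differences between these classes are therefore not independent of the rule. Among promoters 1 to 5 kb from an H3K4me3 peak, H3K4me1 lay within 1 kb of 7, 1 and 4 of 238 unused promoters and of 0, 0 and 0 of 228 promoters of genes without H3K4me3. Within 5 kb the shares in this distance class were 30.3%, 24.4% and 19.7% against 11.4%, 6.58% and 5.26%. At 5 to 10 kb from H3K4me3 they fell to 4.96%, 2.89% and 2.89% of 242 unused promoters. H3K4me1 near unused promoters was thus found mostly where H3K4me3 was also near.

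**Figure D2:**
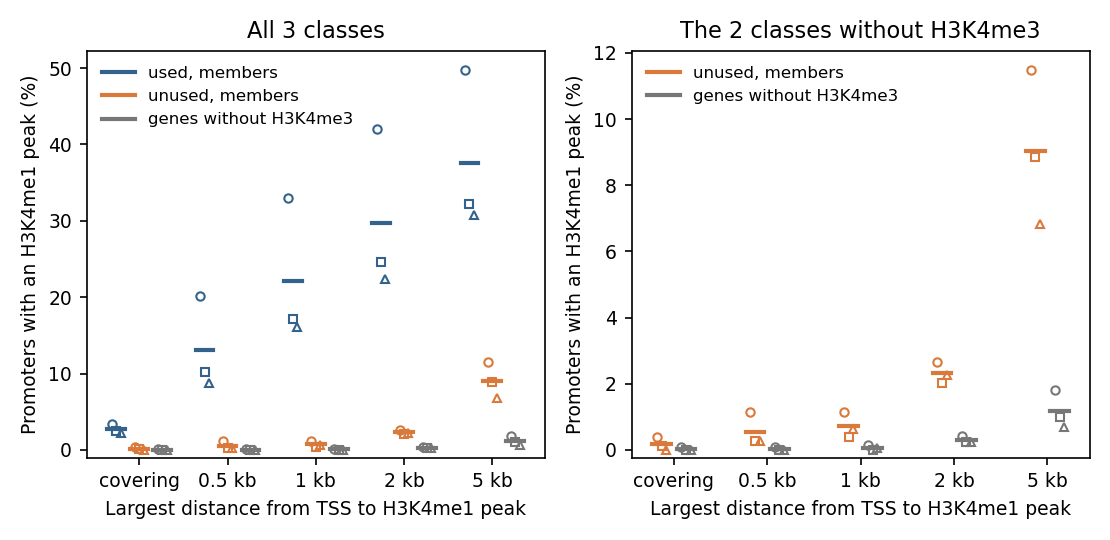
Percent of promoters with an H3K4me1 peak (vertical axis) covering the TSS or within 0.5, 1, 2 or 5 kb of it (horizontal axis), for used and unused promoters of the 663 genes and for genes without H3K4me3. Circles, squares and triangles are H3K4me1 replicates 1, 2 and 3 and bars their mean, and the right panel repeats the 2 lower classes on a smaller scale, on which the unused promoters reach a mean of 9.05% at 5 kb and the others 1.17%.

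A difference between unused promoters on the 2 sides could not be resolved at 1 kb. Unused downstream promoters had H3K4me1 within 1 kb in 8, 1 and 5 of 593 cases and unused upstream promoters in 1, 2 and 0 of 179, means of 0.787% and 0.559%. The difference of 0.228 ± 1.02 percentage points (SD, n = 3) was positive in 2 of 3 libraries (two-sided exact sign-flip permutation test, p = 1), and was −0.05276 without replicate 1, −0.07914 without replicate 3 and −0.06103 without H3K4me3 replicate 2. Within 5 kb the downstream ones were higher in 3 of 3 libraries, by 2.42 ± 0.977 percentage points (p = 0.25 by the same exact test). The 2 sides also differed in their distance to H3K4me3. The median to the nearest peak was 7.255 kb for unused downstream and 8.653 kb for unused upstream promoters. More than 50 kb away lay 4.22% and 10.6% of them. The sides were not compared at equal distance.

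No unused promoter had H3K4me1 within 1 kb in more than 1 library. The count was 17 of 792 merged promoters in any library (2.15%), against 0.741% of all unused TSSs counted singly. It was 0 in all 3 libraries, where all unused TSSs also gave 0%. At used promoters it was 326 of 713 in any library (45.7%) and 23 in all 3 (3.23%), against 46.3% and 2.65% of all used TSSs. The unused promoters with a peak included those of Csnk1g2, Elmo2, Pgap2, Pik3ca, Rnf43, Snx29, Trak2 and Ciita in replicate 1, of Srgn, Tmcc1 and Zbtb43 in replicate 2 and of Cd82, Cfap97, Gcnt1, Lsp1 and Tmem80 in replicate 3. At Lsp1, which encodes an actin-binding protein of leukocytes, a peak of replicate 3 with a fold of 5.94 lay 201 bp from the unused TSS, with H3K4me3 no nearer than 7881 bp. At Pik3ca, a catalytic subunit of phosphoinositide 3-kinase, the peak of replicate 1 had a fold of 3.51 and H3K4me3 was 1048, 1229 and 2413 bp away.

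The used promoters of the 663 genes differed by side. H3K4me1 lay within 1 kb of 37.5%, 19.7% and 25% of 152 used downstream promoters and of 31.7%, 16.2% and 14.0% of 537 used upstream ones in replicates 1 to 3, so the downstream ones were higher in each library. H3K4me3 peaks wider than 4 kb covered 23.7%, 17.8% and 19.7% of the used downstream promoters, 11.2%, 7.64% and 8.75% of the used upstream ones and 11.3%, 7.63% and 8.16% of the used TSSs of all other genes. Both contrasts were noticed in the data and are given without a test. Over all used promoters the median H3K4me3 width was 2156, 1942 and 1953 bp and the median fold enrichment 6.76, 6.14 and 6.15, against 2183, 1962 and 1976 bp and 6.997, 6.23 and 6.26 at the used TSSs of other genes.

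The used promoter was the one richer in CpG in nearly all genes. Its CpG ratio was above that of the unused promoter in 594 of 663 genes (89.6%, 95% Wilson interval 87.0% to 91.7%), with a median difference of 0.44. The median ratio was 0.688 at used and 0.220 at unused promoters, and 61.4% of the former and 4.17% of the latter reached 0.6, the limit taken for a CpG-rich promoter. The background, counted over single TSSs and not merged promoters, holds the same contrast. There 76.8% of all used and 12.3% of all unused TSSs were at or above 0.6, and 47.4% of all TSSs. The share of CpG-rich promoters was thus lower in both promoter classes of the 663 genes than in their counterparts over the genome, while the median of unused promoters was about the same (0.220 against 0.216). These are descriptions over promoters, which are not replicates.

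Genes with the downstream promoter used were less one-sided. The used promoter had the higher ratio in 98 of 129 of them (76.0%) and in 469 of 504 genes with the upstream promoter used (93.1%). The 95% Wilson intervals, 67.9% to 82.5% and 90.5% to 94.96%, are for counting error only. Genes are not replicates, and the contrast was not tested. The median ratio was 0.584 at used downstream and 0.721 at used upstream promoters, and 0.233 at unused upstream and 0.216 at unused downstream ones. Both promoters were CpG-poor in 52 of 129 genes (40.3%) with the downstream and 154 of 504 (30.6%) with the upstream promoter used, and a CpG-poor promoter was used while a CpG-rich one was not in 9 (6.98%) and 7 (1.39%). The letters TATAAA, sought on either strand in the 50 bases before the TSS, were found at 1.12% of used and 1.52% of unused promoters, against 1.14% of all used, 5.75% of all unused and 3.30% of all TSSs.

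**Figure D3:**
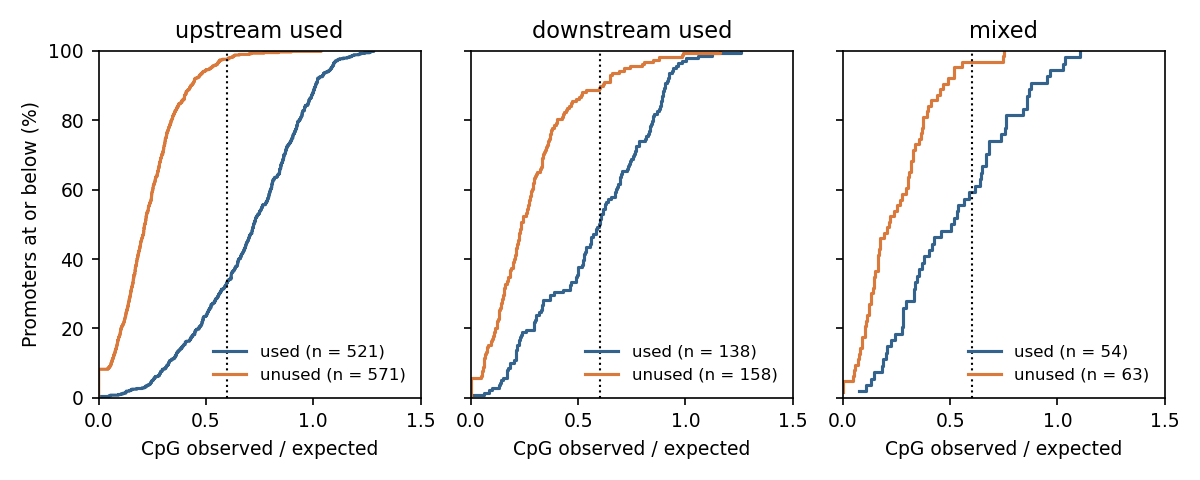
Cumulative percent of promoters (vertical axis) by CpG ratio from 250 bases before to 50 after the TSS (horizontal axis), for genes with the upstream promoter used, the downstream promoter used or a mixed order. Blue is used and orange unused promoters, and the dotted line is the limit of 0.6 for CpG-rich promoters. The distance between the curves is widest where the upstream promoter was used.

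Of 82 genes listed as known for alternative promoters, 46 had several promoters in the annotation and 14 met the rule (30.4%, against 24.6% of all such genes). The downstream promoter was used in 8, the upstream one in 2, and 4 were mixed. The list was written with earlier results of these data known and is described only.

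Among blood cell transcription factors 5 of 11 met the rule. At Lmo2, a LIM adaptor of hematopoietic complexes that is high in GC B cells, H3K4me3 covered the downstream TSS (GRCm38, chr2, position 103970129, plus strand) with fold enrichments of 6.42, 4.63 and 4.34 and widths of 3629, 3530 and 3494 bp. The unused TSS 12.1 kb upstream was 2409, 3734 and 3793 bp from the nearest H3K4me3 peak, and H3K4me1 was no nearer than 11385 bp. At Ciita the fold enrichments were 8.06, 6.20 and 7.02 over peaks of 5693, 12708 and 6170 bp that covered both used promoters. H3K4me1 flanked the first of these at 945, 975 and 1035 bp in the 3 libraries. The upstream Ciita promoter, 8115 bp away, had H3K4me3 no nearer than 3667, 3669 and 3258 bp and an H3K4me1 peak at 216 bp in replicate 1 only, with a fold of 4.62. Ciita is known for separate first exons in dendritic cells, B cells and interferon-treated cells.

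At Mef2c, a MADS box factor needed for B cell proliferation, 2 downstream promoters were used. The first had folds of 8.60, 6.99 and 7.25 over 9529, 9862 and 10108 bp, and the second 6.48, 6.13 and 5.40 over 12062, 10026 and 6190 bp. The unused upstream promoter, 20.3 kb from the first, had H3K4me3 no nearer than 13976 bp in any library. Foxp1, a forkhead repressor, used 3 promoters. The middle one, poor in CpG at a ratio of 0.282, had the widest H3K4me3 peaks, 9686, 6442 and 6575 bp, and H3K4me1 at 188, 261 and 112 bp in the 3 libraries. Its unused promoter lay between the first and second used ones and was 2414, 2686 and 2233 bp from H3K4me3. Tcf4, an E protein, used promoters on both sides of 2 unused intronic ones, which were at least 11182 bp from H3K4me3.

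Among signalling genes 4 of 10 met the rule. Pde4d, a cAMP phosphodiesterase, had 4 unused promoters upstream of a used one 345 kb from the nearest of them. H3K4me3 there was weak and narrow, with folds of 5.57, 3.43 and 3.79 over 592, 291 and 859 bp. Its relative Pde4b used 1 promoter, with folds of 8.31, 7.51 and 7.79 over 7292, 6757 and 7014 bp, and had 4 unused promoters upstream and 1 downstream. Arhgef7 used the downstream of 2 CpG-rich promoters, with ratios of 0.939 at the used and 1.16 at the unused one and H3K4me3 no nearer than 29556 bp to the latter. Sgk1, a kinase downstream of phosphoinositide 3-kinase, used its first and last promoters, while one between them was unused. H3K4me3 at the first was weak, with folds of 3.39, 3.74 and 3.95 over 184, 1174 and 1121 bp. The last had folds of 5.65, 5.35 and 4.84 over 4471, 1466 and 4426 bp.

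Of the metabolic and hormone genes 2 of 6 met the rule. Hk1, a hexokinase that phosphorylates glucose, had folds of 9.23, 8.88 and 7.24 at the used promoter, and its unused promoters 17.8 and 39.4 kb upstream had H3K4me3 no nearer than 16999 bp. The CpG ratio was 0.526 at the used promoter of Hk1 and 0.274 and 0.0507 at the unused ones. Esr1, the estrogen receptor alpha, used an upstream promoter with folds of 6.91, 7.60 and 5.79, and its downstream promoter 98.1 kb away was 77299, 76872 and 77322 bp from H3K4me3. Of 11 nervous system and muscle genes only Gnas met the rule. Gnas is an imprinted locus with several first exons, whose most upstream one starts a neuroendocrine secretory protein. The promoter 43.4 kb downstream of the unused one was used, with folds of 5.55, 6.33 and 5.14. Of the chromatin genes 2 of 8 met the rule. Dnmt1, which has separate somatic and oocyte first exons, was covered at the downstream promoter with folds of 5.92, 5.29 and 5.74, and the one 6.91 kb upstream was 5719, 6444 and 1540 bp from H3K4me3 with H3K4me1 no nearer than 6338 bp. Satb1, a chromatin organizer of lymphocytes, used the upstream promoter with folds of 6.31, 4.54 and 4.03.

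The other 32 listed genes with several promoters did not meet the rule. Runx1, Zeb2, Lck, Cdkn2a and Rara had used TSSs at least 5 kb apart, with the used TSSs of Runx1 spanning 129 kb and those of Lck 15.3 kb. Syk, Dnmt3a, Hdac9 and Kdm2b were used at 1 place without a qualifying unused TSS. In 8 genes, among them Erg, Trp63 and Tet1, every TSS was unused, and 15, among them Bach2, Fyn and Bdnf, had no used TSS but an intermediate one.

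**Figure D4:**
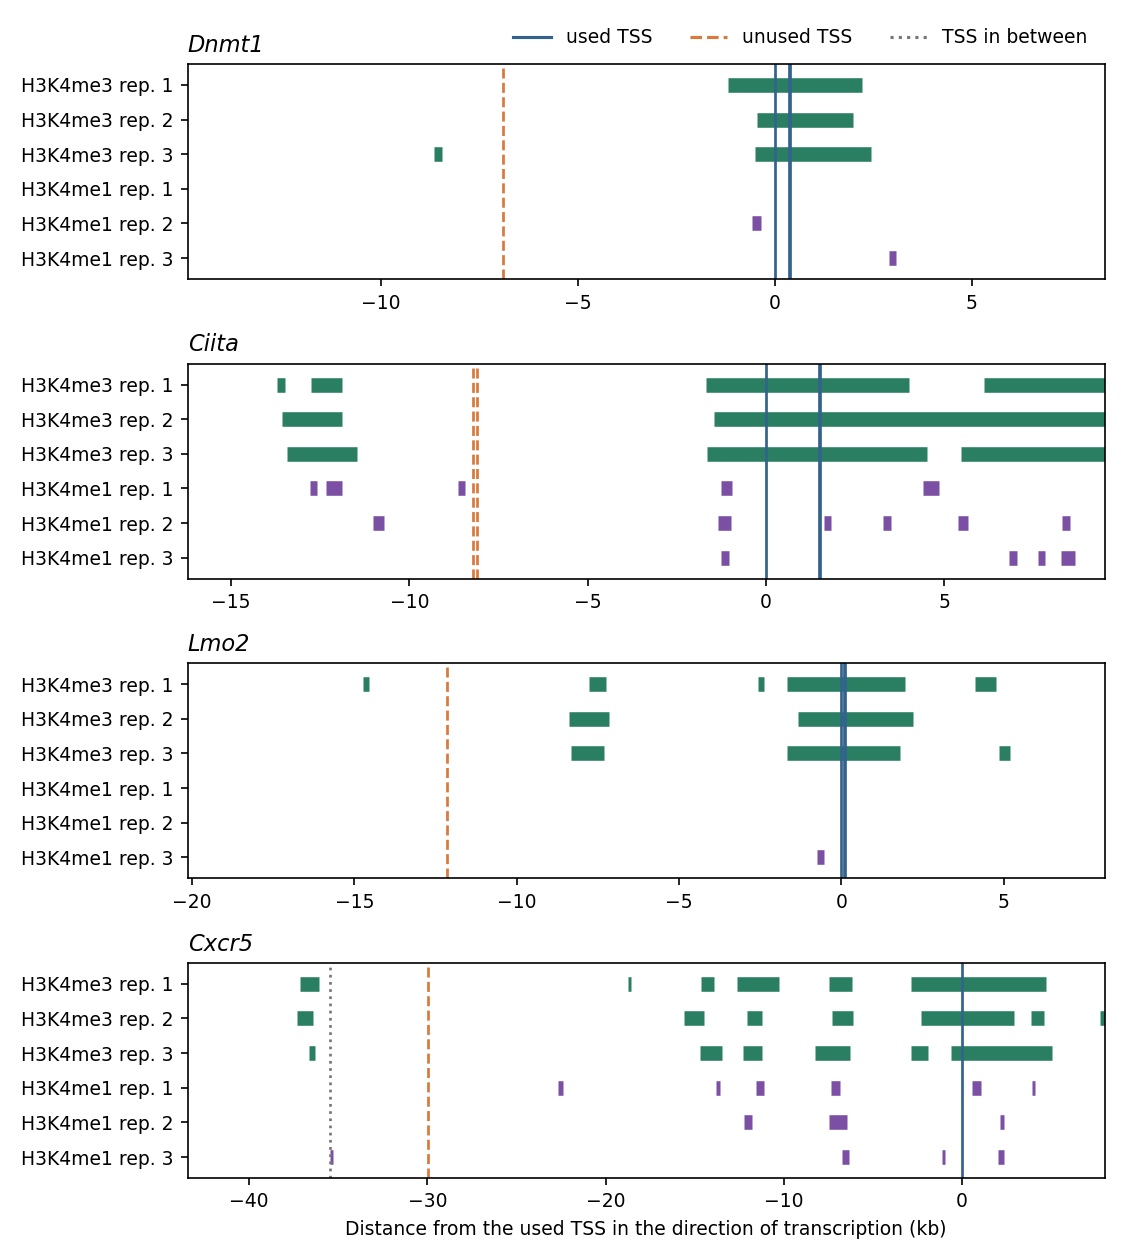
Peaks in the 6 libraries (rows) around the promoters of Dnmt1, Ciita, Lmo2 and Cxcr5, by distance in kb from the used TSS in the direction of transcription (horizontal axis). Green bars are H3K4me3 peaks, purple bars H3K4me1 peaks, solid lines used TSSs, dashed lines unused TSSs and the dotted line a TSS of intermediate state. H3K4me3 bars cross the solid lines in all 3 rows and stay clear of the dashed ones.

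Genes with a known role in B cells were also described, after their values had been seen. Cxcr5, the follicular homing receptor, used the downstream promoter with folds of 7.25, 7.76 and 6.78 over 7598, 5246 and 5718 bp, and the unused promoter 30.0 kb upstream was 6115, 6445 and 6329 bp from H3K4me3. A further Cxcr5 TSS, at −35.456 kb from the used one, was intermediate. H3K4me3 peaks of replicates 1 to 3 ended near it, at −36.085, −36.415 and −36.299 kb, and an H3K4me1 peak of replicate 3 covered it. Cr2, which encodes complement receptors of B cells, used the upstream promoter with folds of 6.11, 5.35 and 5.09, and its unused TSS 5.44 kb downstream lay in an exon.

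In the B cell receptor and phosphoinositide pathway, Pik3cd, the leukocyte catalytic subunit, used 2 upstream promoters under single H3K4me3 peaks of 10928, 10976 and 7160 bp, while 3 internal promoters were unused. Inpp5d, the phosphatase SHIP1, used the upstream promoter with folds of 6.38, 7.10 and 5.50, and its unused promoter 55.8 kb downstream was at least 10628 bp from H3K4me3. Pdcd1lg2, the ligand PD-L2, used the downstream promoter with folds of 8.15, 6.77 and 5.37 over 963, 1776 and 1500 bp. Il16 used a downstream, CpG-poor promoter under H3K4me3 peaks of 14795, 8289 and 9225 bp, 80.0 kb from the unused one. Zbtb20, a zinc finger repressor, did so at a distance of 261 kb, with peaks of 10859, 9970 and 11058 bp and a CpG ratio of 0.224. Rbpj, the nuclear effector of Notch, and Ikbkg, the regulatory subunit of the IκB kinase, also had their H3K4me3 at a downstream promoter, with folds of 7.09, 8.05 and 6.60 and of 6.73, 5.57 and 6.83, and Ikbkg used its first promoter as well. Ezh2, the H3K27 methyltransferase, Itgal, the integrin LFA-1 alpha chain, and Dock2, an exchange factor for Rac, used the upstream promoter, with separations of 17.4, 13.1 and 95.4 kb.

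The genes with the longest distances were Dlg2 (613 kb), Syne1 (482 kb), 5730522E02Rik (441 kb), Diaph3 (392 kb) and Inpp4b (373 kb) among those with the upstream promoter used, and Sema6d (520 kb), Pde4d (345 kb), Oxr1 (342 kb), March1 (265 kb) and Zbtb20 (261 kb) among those with the downstream one used. At March1, a ubiquitin ligase that removes MHC class II from the surface, the used promoter had a CpG ratio of 0, folds of 7.95, 8.26 and 6.75 and widths of 8089, 7457 and 7982 bp, and 3 promoters upstream of it were unused. At Inpp4b, a lipid phosphatase, the used promoter had folds of 6.39, 5.62 and 6.18 over 5276, 4916 and 4132 bp, and 3 downstream promoters were unused. At Oxr1 the unused promoter was CpG-rich with a ratio of 0.990 and was 1181 bp from an H3K4me3 peak in replicate 1, but 308241 and 316790 bp from one in the others. At Sema6d, a semaphorin, the folds at the used promoter were 4.64, 3.27 and 4.28.

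Zinc finger genes with names beginning in Zfp were common in the set. Of 77 with several promoters, 38 met the rule (49.4%, against 24.6% of all genes with several promoters), and 36 of these used the upstream promoter. This group was noticed in the data and was not tested.

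Genes close to the limits of the rule show how its edges fell. The separations just above 5 kb were 5004 bp at Mindy1, 5009 bp at Asah2 and 5028 bp at Pcnp, and those just below were 4998 bp at Pef1, 4964 bp at Cep164 and 4945 bp at Naip2. The unused TSSs nearest to H3K4me3 were 1002 bp from it at Lmo7 and Hlcs and 1021 bp at Pdpk1, and those kept out were 999 bp away at Akap11, 990 bp at Ccl25 and 967 bp at Prkacb.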

How the data were processed

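The data were 6 deposited peak lists, 1 per library, called by the authors in each library separately: broad peaks for H3K4me3 and narrow peaks for H3K4me1. The submitters' processing notes name BWA, Picard, HOMER, Genrich and mm10. The peak caller's settings and the control are not given in the sources used here, and the lists have the layout of MACS2. The deposited fold enrichment is a linear ratio of signal to background set by the authors' caller. The deposited −log10 p-value and −log10 q-value belong to the same comparison, and the deposited score follows the q-value and was not used. Lists of the 2 marks differ in calling mode, so their levels were not compared.

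TSSs of 45065 protein-coding transcripts (41438 positions, 21851 genes) came from the GENCODE basic annotation M21 for GRCm38, and 0 peaks lay past a chromosome end. Of the TSSs, 14961 were used, 17270 unused and 9207 intermediate. Promoters were TSSs of 1 gene and state merged within 1 kb, and a promoter had H3K4me1 when any of its TSSs did. Shares over all TSSs count single positions, so their unit differs from that of promoters. Promoter classes were compared within each H3K4me1 library, with two-sided exact sign-flip permutation tests over 3 libraries (smallest p 0.25, so none can pass 0.05). CpG ratios and printed bases were read from GRCm38.p6. The classification was tested on simulated data. Python 3.11.15, numpy 2.4.6, pandas 2.3.3 and scipy 1.17.1 were used.

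Named genes were all listed genes that met the rule, the 5 longest separations in each direction, genes with H3K4me1 at the unused promoter in 3 libraries (0 genes) and genes at the limits. Genes with H3K4me1 in 1 library and further B cell genes were added after their values were seen, and some genes that the rule would name are not reported here. The members and lists were chosen with earlier results of these data known.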

Additional observations from a re-analysis of the deposited data

How the results depend on the processing

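Of 85 recomputed values, 4 changed direction and 5 counts or shares moved beyond their limit. The H3K4me1 differences that kept their direction varied in size. The number of genes fell from 663 to 325 with a separation of 20 kb and to 427 when used TSSs came only from H3K4me3 peaks with a −log10 q of at least 5, and rose to 1016 when coverage in at least 1 library was enough, an alternative chosen after seeing the data. Fewer or more TSSs qualify in each by construction. Leaving out 1 H3K4me3 replicate gave 713 to 777 genes. The upstream share stayed between 76.4% and 82.08%. The share of genes with the higher CpG ratio at the used promoter was 86.15% at 20 kb and 93.67% over 1000 bases, and the cause was not tested.

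H3K4me1 was lower at unused than at used promoters under all 18 alternatives (−28.54 to −2.543 percentage points). The rule favours this sign in each of them, so their number adds no support. Most H3K4me1 peaks lay within H3K4me3 peaks, which unused promoters lack by definition. The mean of H3K4me1 at unused promoters was higher than in genes without H3K4me3 under all 18 (0.04209 to 7.884). The lowest, with H3K4me1 peaks of a −log10 q of at least 5, was 0.04209 ± 0.0729 (SD). That mean was below its SD, as were those for peaks covering the TSS (0.1381 ± 0.1444, with 0 in replicate 3) and at 20 kb (0.447 ± 0.4485). In these settings the direction is not resolved. The contrast of unused downstream with unused upstream promoters, 0.2283 percentage points, turned to −0.01759 for peaks covering the TSS. It ranged from −0.07914 to 0.8168 when 1 H3K4me1 replicate was left out, at −0.05276 without replicate 1, −0.07914 without replicate 3 and 0.8168 without replicate 2, and from −0.06103 (without H3K4me3 replicate 2) to 0.3979 when 1 H3K4me3 replicate was left out. It rests on 17 peaks, and its direction cannot be stated.

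No paired analysis was possible because replicate numbers are shared only between the 2 marks, and no test compares the marks. The sign-flip tests already take the difference between promoter classes within each H3K4me1 library. The depth behind a missing peak is unknown, and TSSs rest on annotation, not on RNA from these cells.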
